A study of Mus musculus with 18 samples.

Results

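The potassium channel genes of the mouse aorta are described here as the protein-coding genes whose symbols begin with Kcn. The count table lists 94 of them, and 42 reached at least 10 counts in at least 6 of the 18 mice and were tested. The other 52 fell short of that level, 11 of them with no count in any mouse. Among those 52 was Kcna3, a voltage-gated channel described in vessels, with 101 counts over the 18 mice together. The choice used gene names and counts, without regard to group.

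RNA-seq was performed on whole descending aorta, with its intimal, medial and adventitial layers, in 3 groups of 6 animals: HGPS mice of 2 mo, WT mice of 2 mo and WT mice of 24 mo. All mice were male C57BL/6. The HGPS mice carried the LMNAG609G mutation on both alleles, which yields progerin, the truncated lamin A of Hutchinson-Gilford Progeria Syndrome, from the endogenous gene in every tissue that transcribes it. Labelled ages ran from 62 to 95 d in the 2-mo WT group, from 64 to 75 d in HGPS and from 609 to 762 d in the 24-mo WT group. The 24-mo mice were bought and aged, and the 2-mo WT mice are described as littermates of the HGPS mice, so age and origin cannot be told apart in the aging comparison. The deposited totals were 12413229 to 21016752 counts per 2-mo WT mouse, 17838351 to 30844775 per HGPS mouse and 13622602 to 19871697 per 24-mo WT mouse. Lmna itself had a median of 418.1 CPM, the count scaled for library size, in 2-mo WT, 599.5 in HGPS and 404.1 in 24-mo WT, and counts per gene do not separate progerin from lamin A. The smooth muscle markers Acta2 and Myh11, which define the tissue, averaged 16390 and 9621 CPM in 2-mo WT.

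Potassium channels let potassium leave the cell down its gradient and thereby draw the membrane voltage toward more negative values. In arterial smooth muscle this closes voltage-gated calcium channels, lowers cytosolic calcium and relaxes the wall. Voltage-gated (Kv) channels open on depolarization, large-conductance (BK) channels open on voltage and calcium, inward rectifiers (Kir) include the ATP-sensitive channels, and tandem-pore channels (K2P) carry background current. Auxiliary subunits form no pore and set how, when or where a pore opens.

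What makes these proteins potassium channels is a short loop in the pore. In most of the pore-forming genes tested it holds a threonine, a hydrophobic residue such as valine or isoleucine, a glycine, an aromatic residue and a second glycine in a row. The codons of that loop were searched in reading frame as ACNNTNGGNTNNGGN, on the coding strand of the longest coding sequence of each gene in GENCODE M21 (GRCm38). It was present in 29 of the 34 pore-forming genes tested and in 0 of the 8 auxiliary genes, against 0.867% of all protein-coding genes (187 of 21562). The 5 pore-forming genes without these letters were Kcnh1, Kcnh2, Kcnk1, Kcnn1 and Kcnn3. The letters cover every codon of threonine, valine, isoleucine, glycine and the aromatic residues. In these 5 genes the loop of the sequence searched therefore differs from that run in a residue. The windows below belong to pore-forming genes on which the results turn, with the filter codons in capitals. The coordinates are those of the whole gene, and each window is a short part of its coding sequence. They include genes that went in opposite directions in the comparisons below, and Kcnk3, which holds 2 such loops in 1 chain.
Kcna5, chr6:126532551-126535412, minus strand: atgaccACTGTAGGCTACGGGgacatg
Kcnc4, chr3:107438303-107459552, minus strand: atgacaACGCTTGGCTATGGGgacatg
Kcnf1, chr12:17172100-17176888, minus strand: atgaccACAGTGGGCTATGGTgacatc
Kcnq3, chr15:65986387-66286642, minus strand: ctggccACCATTGGTTATGGAgacaag
Kcnma1, chr14:23289431-24014491, minus strand: atgtctACAGTGGGTTATGGGgacgtt
Kcnj8, chr6:142564837-142571614, minus strand: caagtgACCATTGGGTTTGGAgggaga
Kcnk3, first loop, chr5:30588170-30625271, plus strand: atcaccACCATCGGCTATGGTcatgcg
Kcnk3, second loop: ctcaccACCATCGGCTTCGGCgactat

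The normal young aorta used few of these genes at a high level. Levels of different genes were compared as CPM per kilobase of exon, a scale used only in this paragraph. In 2-mo WT mice Kcnmb1, the smooth muscle beta subunit that raises the calcium sensitivity of the BK channel, stood at 38.6 ± 2.92 (SD, n = 6), and Kcnab1, a cytoplasmic Kv beta subunit, at 37.3 ± 2.63. These neighbours in the order did not differ beyond their spread. Kcnj8, the pore of the vascular ATP-sensitive channel, followed at 21.03 ± 1.67, then Kcnh2, an ERG-type Kv channel, at 15.6, and Kcne4, a single-span Kv regulator, at 14.1. Further down the order came Kcnma1, the BK pore, at 6.25, and the lowest was Kcnk2, a stretch-sensitive K2P channel, at 0.0543. Of the 42 genes, 24 averaged under 1 CPM per kilobase.

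**Figure D1:**
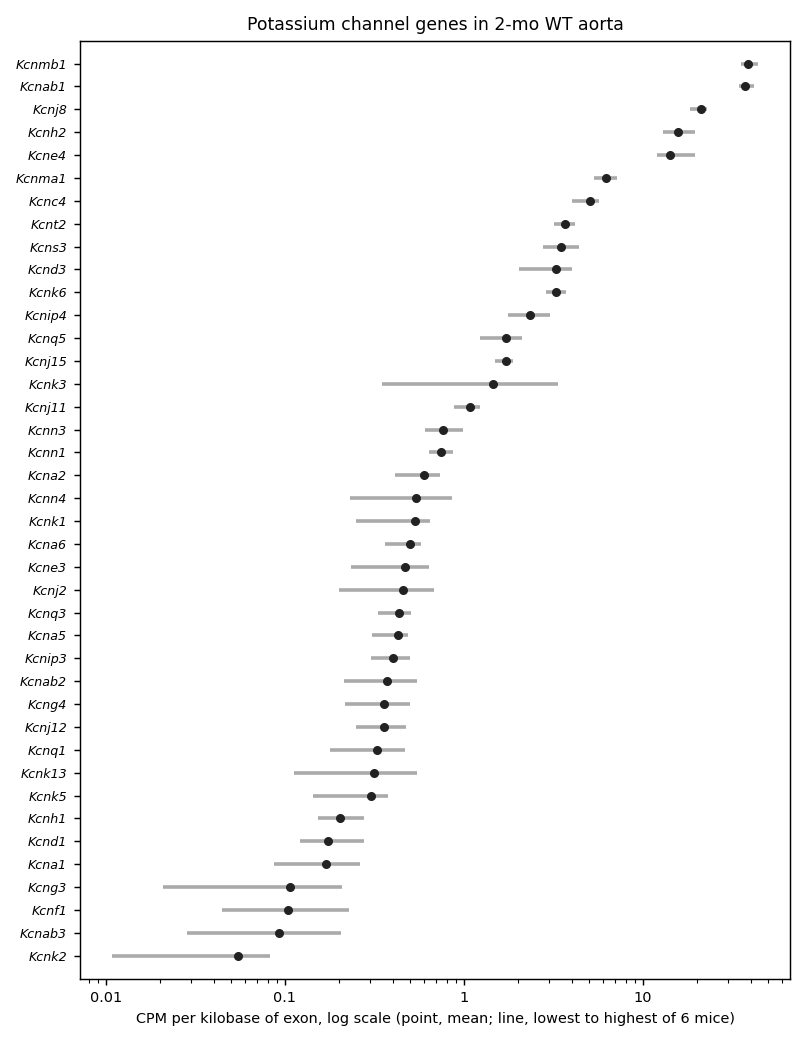
Level of 40 of the 42 potassium channel genes in 2-mo WT aorta, as CPM per kilobase of exon on a log scale. Points are means and lines run from the lowest to the highest of 6 mice. Of the genes shown, 5 averaged over 10, led by Kcnmb1 at 38.6 and Kcnab1 at 37.3.

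The first comparison asked what progerin expression did to these genes at 2 mo. In HGPS aortas 23 of the 42 genes were called at an adjusted p under 0.05, 18 lower and 5 higher. The share was 54.8%, and over all 15210 genes tested 43.2% were called, 21.2% lower and 22% higher. The median log2 fold change of the 42 genes was -0.29, against 0.003 over all genes. The groups did not overlap for 12 of the 42 genes, and for 21.9% of all genes. At the stricter cut-offs of the study, 1.5-fold with adjusted p under 0.001, the count was 10 (6 lower, 4 higher), against 9.5% of all genes (4.23% lower, 5.27% higher). All adjusted p values are from edgeR's quasi-likelihood test with Benjamini-Hochberg adjustment over the 15210 genes, and every fold change is on the log2 scale with its standard error. In whole tissue, fewer cells of a type and less RNA per cell cannot be told apart.

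**Figure D2:**
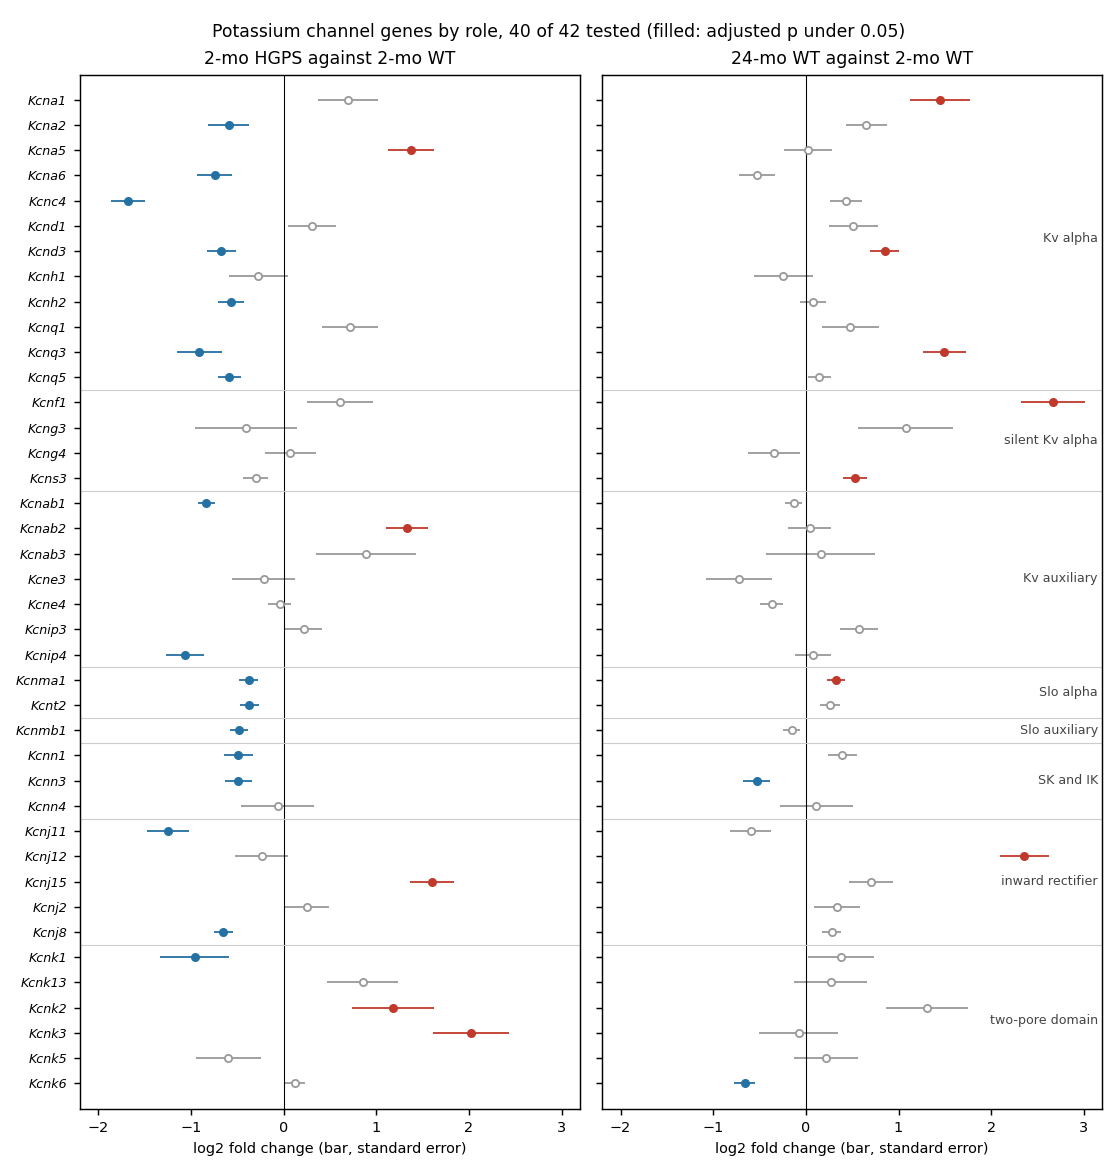
Log2 fold change with its standard error for 40 of the 42 genes, grouped by role, in 2-mo HGPS against 2-mo WT on the left and 24-mo WT against 2-mo WT on the right. Filled points passed an adjusted p under 0.05, with red for higher and blue for lower. The left panel has 17 blue and 5 red points, the right panel 2 blue and 7 red, and both use the same 2-mo WT mice.

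Among the 14 Kv alpha subunits that form pores on their own, 8 were lower and 1 was higher in HGPS. The share was 64.3%, against 43.2% of all genes. The fall in Kcnc4, a Kv channel that repolarizes the membrane fast, had the smallest adjusted p of the 42 genes. It ranged from 14.8 to 20.9 CPM with a median of 19.4 in 2-mo WT mice and from 4.73 to 7.19 with a median of 5.66 in HGPS mice. Every HGPS mouse was below every WT mouse, and the log2 fold change was -1.68 ± 0.18 (adjusted p 1.39e-06).

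The Kv7 family, whose members open near the resting potential and restrain vascular tone, included genes that were lower. Kcnq5, a member found in vascular muscle, ranged from 9.46 to 16.2 CPM (median 13.4) in 2-mo WT and from 7.10 to 10.6 (median 8.76) in HGPS. These ranges overlapped, and the gene was lower by the test (-0.58 ± 0.13, adjusted p 0.00127). Kcnq3, best known from neurons, ranged from 4.89 to 7.46 CPM (median 6.55) in 2-mo WT and from 1.62 to 5.27 (median 3.55) in HGPS, with an overlap of the groups and a log2 fold change of -0.91 ± 0.25 (adjusted p 0.00593). Kcnq1 went the other way in its estimate at 0.72 ± 0.30 without passing the test (adjusted p 0.0615). It shares 121 exon bases with the antisense RNA Kcnq1ot1, which held 11182 counts against 644 for Kcnq1 over the 18 mice, and whether the counting used strand is not given in the sources used here.

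Kcnh2 had 62.4 to 94.9 CPM (median 75.0) in 2-mo WT and 45.2 to 59.9 (median 50.8) in HGPS, with no overlap. The log2 fold change was -0.57 ± 0.14 (adjusted p 0.00365). Kcnd3, a transient Kv channel that inactivates quickly, had 19.6 to 38.5 CPM (median 33.5) in 2-mo WT and 13.7 to 24.96 (median 19.6) in HGPS. The lowest WT mouse lay within the HGPS range, and the log2 fold change was -0.67 ± 0.16 (adjusted p 0.00188).

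The Kv1 family split. Kcna5, a delayed rectifier of arterial smooth muscle, was the only Kv alpha subunit called higher, with 0.872 to 1.39 CPM (median 1.27) in 2-mo WT and 1.56 to 5.23 (median 3.06) in HGPS. Its groups did not overlap (1.37 ± 0.25, adjusted p 0.000238). Kcna6, another delayed rectifier, was lower, with 2.14 to 3.44 CPM (median 3.23) in 2-mo WT and 1.29 to 2.31 (median 1.70) in HGPS, and only the extremes of the groups crossed (-0.75 ± 0.19, adjusted p 0.00425). Kcna2, a partner in Kv1 tetramers, had 4.92 to 8.76 CPM (median 7.06) in 2-mo WT and 3.42 to 6.30 (median 4.66) in HGPS. Its call was near the threshold (-0.59 ± 0.23, adjusted p 0.04) and was lost, at adjusted p up to 0.0864, when HGPS replicate 1, 3, 5 or 6 or WT 2-mo replicate 1, 2, 4 or 6 was left out. Kcna1, Kcnd1 and Kcnh1 were not called, with log2 fold changes of 0.69, 0.30 and -0.27.

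The silent Kv alpha subunits, which reach the surface only in tetramers with another subunit, did not pass the test in HGPS. Kcnf1, Kcng3, Kcng4 and Kcns3 had log2 fold changes of 0.60, -0.41, 0.07 and -0.30 and adjusted p values of 0.183, 0.583, 0.858 and 0.0703.

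The Kv auxiliary subunits included opposite changes within 1 family. Kcnab1 ranged from 293.4 to 360.0 CPM (median 318.3) in 2-mo WT and from 156.6 to 230.6 (median 164.2) in HGPS. Its paralogue Kcnab2 ranged from 1.19 to 3.03 CPM (median 2.15) in 2-mo WT and from 3.48 to 7.05 (median 5.06) in HGPS. Neither gene had overlapping groups, and the log2 fold changes were -0.83 ± 0.09 for Kcnab1 (adjusted p 1.67e-06) and 1.34 ± 0.23 for Kcnab2 (adjusted p 0.000128). Kcnip4, a calcium-binding subunit of the Kcnd channels, ranged from 6.41 to 11.0 CPM (median 8.13) in 2-mo WT and from 2.27 to 6.41 (median 3.73) in HGPS. The highest HGPS mouse met the lowest WT mouse at the precision printed, without crossing it, and the log2 fold change was -1.06 ± 0.20 (adjusted p 0.000348). Kcnip4 shares 168 exon bases with the gene 5730480H06Rik on the opposite strand. Kcnab3, Kcne3 and Kcnip3 were not called (0.89, -0.22 and 0.22), and Kcne4, the fifth highest gene per kilobase, had a log2 fold change of only -0.04 ± 0.13 (adjusted p 0.826).

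Both parts of the smooth muscle BK channel were lower in HGPS. Kcnmb1 had 147.8 to 184.1 CPM (median 160.0) in 2-mo WT and 85.2 to 142.5 (median 116.6) in HGPS, with no overlap (-0.48 ± 0.09, adjusted p 0.000507). Kcnma1 had 90.8 to 121.3 CPM (median 109.3) in 2-mo WT and 69.4 to 91.0 (median 82.7) in HGPS, and the lowest WT mouse lay just below the highest HGPS mouse (-0.38 ± 0.10, adjusted p 0.00434). Kcnt2, a sodium-activated relative of the BK pore, was also lower (-0.37 ± 0.11, adjusted p 0.00892). Of the small- and intermediate-conductance channels, which calcium opens through calmodulin, Kcnn1 (-0.49 ± 0.16, adjusted p 0.0189) and Kcnn3 (-0.49 ± 0.14, adjusted p 0.00994) were lower with overlapping groups, and Kcnn4, known from endothelium and blood cells, was not called (-0.06 ± 0.39, adjusted p 0.918).

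The inward rectifiers held changes in both directions. Kcnj8 ranged from 46.5 to 58.2 CPM (median 54.4) in 2-mo WT and from 28.4 to 44.6 (median 32.7) in HGPS. The other ATP-sensitive pore, Kcnj11, ranged from 3.21 to 4.50 CPM (median 4.28) in 2-mo WT and from 1.11 to 2.44 (median 1.64) in HGPS. Kcnj15, a Kir channel studied mainly in kidney and other epithelia, ranged from 9.46 to 11.8 CPM (median 11.0) in 2-mo WT and from 28.7 to 37.3 (median 32.1) in HGPS. None of these groups overlapped. The log2 fold changes were -0.65 ± 0.10 for Kcnj8 (adjusted p 6.28e-05), -1.25 ± 0.22 for Kcnj11 (adjusted p 0.000205) and 1.60 ± 0.24 for Kcnj15 (adjusted p 3.43e-05). Kcnj2 and Kcnj12, the strong rectifiers, were not called (0.25 ± 0.25, adjusted p 0.447, and -0.24 ± 0.28, adjusted p 0.531).

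**Figure D3:**
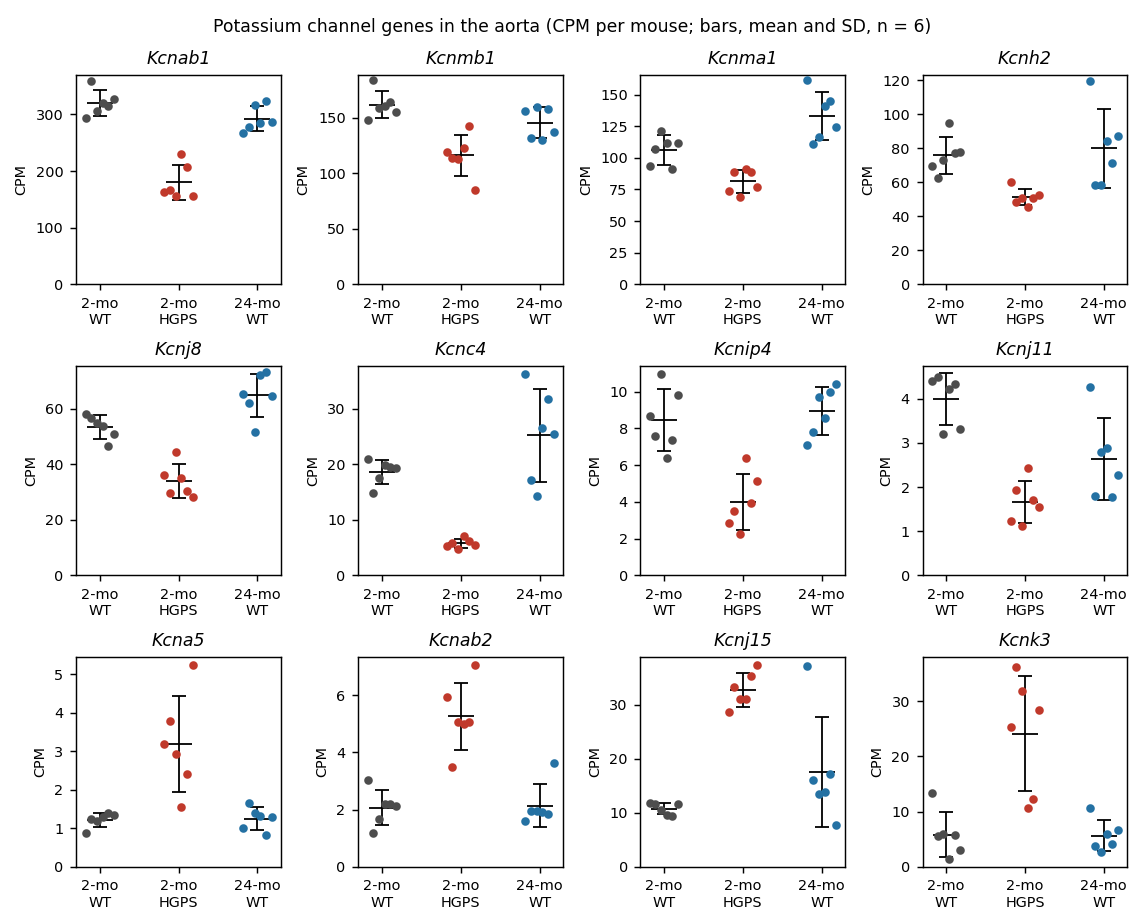
CPM of 12 potassium channel genes in each mouse, with 1 panel per gene and an axis from 0. Points are mice and bars are the mean and SD of 6 mice. The HGPS points lie below those of 2-mo WT for Kcnab1, Kcnmb1, Kcnh2, Kcnj8, Kcnc4, Kcnip4 and Kcnj11, above them for Kcna5, Kcnab2 and Kcnj15, and overlap them for Kcnma1 and Kcnk3.

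Of the 6 tandem-pore genes, 2 were higher and 1 was lower in HGPS, a share of 50% against 43.2% of all genes. Kcnk3, the acid-sensitive background channel TASK-1, had 1.38 to 13.3 CPM (median 5.64) in 2-mo WT and 10.6 to 36.3 (median 26.9) in HGPS. The estimate was the largest of the 42 genes (2.02 ± 0.41, adjusted p 0.000648), although the highest WT mouse lay above 2 HGPS mice. Kcnk2 had 0.0535 to 0.406 CPM in 2-mo WT, where no mouse reached 10 counts, and 0.418 to 0.841 in HGPS (1.18 ± 0.44, adjusted p 0.0361). Kcnk1, a weakly conducting family member, had 0.559 to 1.45 CPM in 2-mo WT and 0.325 to 0.938 in HGPS, with an overlap (-0.96 ± 0.37, adjusted p 0.0441). Kcnk5, Kcnk6 and Kcnk13 were not called, with log2 fold changes of -0.59, 0.12 and 0.85. The call of Kcnk2 was lost, at adjusted p up to 0.0821, without HGPS replicate 1, 5 or 6 or WT 2-mo replicate 1 or 5, and that of Kcnk1, at adjusted p up to 0.0923, without HGPS replicate 1, 2, 3 or 5 or WT 2-mo replicate 1, 2, 4, 5 or 6. Kcnk2 reached 10 counts in 5 mice of HGPS and 4 of 24-mo WT, so it passed the count filter through these groups. Both calls were also lost with no filter on low counts (adjusted p 0.0729 for Kcnk2 and 0.0773 for Kcnk1).

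Markers of other tissue moved with several of these results. Of 10 brown fat markers 10 were higher in HGPS, with a summed level of 132.6 to 754.8 CPM in 2-mo WT, 570.3 to 2115 in HGPS and 190.6 to 539.3 in 24-mo WT, and none of the 10 was at 0 in every mouse of a group. White fat markers rose as well, 7 of 8, from 277.9 to 1196 CPM in 2-mo WT to 944.1 to 3457 in HGPS. The 4 HGPS mice of highest brown fat score, the mean log2 CPM of the 10 markers, were those of highest Kcnk3, at 25.4 to 36.3 CPM, and the 2-mo WT mouse of highest score held 13.3. Within HGPS the same 4 mice also had the highest white fat scores, at 6.761 to 7.26 against 5.715 and 5.624. Their smooth muscle scores, built in the same way, were the lowest, at 9.585 to 9.748 against 9.822 and 9.922. A white fat score was not tested as a covariate. The skeletal muscle score rests on the 4 of 8 listed markers that were tested, with means of only 0.300 to 2.61 CPM in 2-mo WT. In HGPS 1 of them was higher and 1 lower. With brown fat and skeletal muscle scores as covariates the log2 fold change of Kcnk3 was 0.26 (adjusted p 0.417). In that fit 14 of the 42 genes were called, against 21.6% of all genes, and 13 of the 23 kept their call and direction. They included Kcnc4, Kcnab1, Kcnj8, Kcnj11, Kcnj15, Kcna5 and Kcnab2. Besides Kcnk3, 9 genes lost the call. Among these the estimates were as large as before or larger for Kcnd3 (-0.68, adjusted p 0.0559), Kcna2 (-0.78, adjusted p 0.102) and Kcnk2 (1.32, adjusted p 0.173). They were smaller for Kcnmb1 (-0.40, adjusted p 0.0509), Kcnip4 (-0.75, adjusted p 0.0567), Kcnma1 (-0.29, adjusted p 0.17), Kcnn3 (-0.36, adjusted p 0.246), Kcnk1 (-0.69, adjusted p 0.377) and Kcnt2 (-0.19, adjusted p 0.395).

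**Figure D4:**
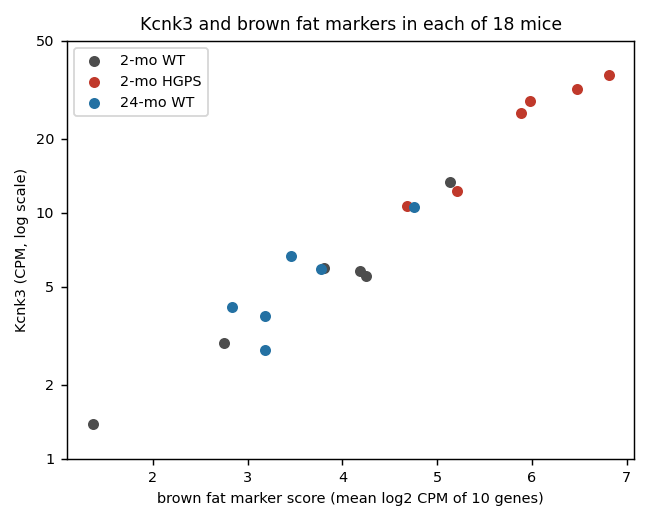
Kcnk3 in CPM on a log scale against the brown fat marker score, the mean log2 CPM of 10 genes, with 1 point for each of 18 mice coloured by group. In each group the mouse of highest score held the most Kcnk3, and 4 of the 2-mo HGPS points, from 25.4 to 36.3 CPM, lie at the upper right, while the other two, at 10.6 and 12.2 CPM, lie below the highest 2-mo WT point at 13.3.

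Smooth muscle and fibroblast markers were lower as well. Of 10 smooth muscle markers 7 were lower in HGPS and 0 higher, with a summed level of 32100 to 41010 CPM in 2-mo WT, 21140 to 29300 in HGPS and 33310 to 38000 in 24-mo WT, and none at 0 in every mouse of a group. Of 8 fibroblast markers 5 were lower and 0 higher, with a summed level of 4193 to 5138 CPM in 2-mo WT and 2803 to 4498 in HGPS, and the median log2 fold changes were -0.56 for the smooth muscle list and -0.58 for the fibroblast list. Myh11, the smooth muscle myosin, fell by 1.17 ± 0.11 on the log2 scale (adjusted p 2.05e-07), and Tagln did not pass the test (adjusted p 0.97). The smooth muscle score, again a mean log2 CPM, ran from 9.585 to 9.922 in HGPS and from 10.101 to 10.388 in 2-mo WT and so separated the groups by itself. With it as a covariate 0 of the 42 genes were called by edgeR (4 at an unadjusted p under 0.05), and 0.138% of all genes (21 of 15210). The estimates nevertheless moved both ways in that fit, growing without a call for Kcnj15 (2.12, adjusted p 0.141), Kcnj8 (-1.02, adjusted p 0.0907), Kcna6 (-1.14, adjusted p 0.473) and Kcnk2 (2.02, adjusted p 0.612) and shrinking to 0.25 for Kcnk3 (adjusted p 0.973) and -0.41 for Kcnab1 (adjusted p 0.558). Macrophage markers were higher for 10 of 10 genes, at 530.4 to 802.8 CPM summed in 2-mo WT and 987.9 to 1605 in HGPS, and cell cycle genes for 8 of 8. Of 3 neuron markers tested 2 were higher and 0 lower, and of 7 cardiac markers 3 were higher and 1 lower. Schwann cell markers split, with 2 of 6 higher and 2 lower, and of 10 endothelial markers 1 was higher and 0 lower. The part of these markers in the channel results was not tested further.

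The second comparison addressed normal aging, with 24-mo WT against the same 2-mo WT mice. Here 9 of the 42 genes were called, 7 higher and 2 lower. The share was 21.4%, and over all genes it was 11.7%, with 6.29% higher and 5.38% lower. The groups did not overlap for 6 genes, against 6.28% of all genes, and 5 genes passed the stricter cut-offs (4 higher, 1 lower), against 2% of all genes (1.28% higher, 0.717% lower). The 5 genes named above as highest per kilobase in the young aorta, Kcnmb1, Kcnab1, Kcnj8, Kcnh2 and Kcne4, were not called, with log2 fold changes from -0.37 to 0.28. Over the 33 genes not called the estimates ran from -0.72 for Kcne3 to 1.31 for Kcnk2 (adjusted p 0.213 and 0.0631). Among other vascular channels, Kcna2 (0.65 ± 0.22, adjusted p 0.0631), Kcnc4 (0.44 ± 0.17, adjusted p 0.112) and Kcnq1 (0.48 ± 0.31, adjusted p 0.36) had positive estimates, and Kcnj2, Kcnk1, Kcnk3, Kcnn4 and Kcnq5 lay between -0.08 and 0.38.

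Kcnj12, a strong inward rectifier of heart and skeletal muscle, had the smallest adjusted p of the aging comparison. It ranged from 0.689 to 1.30 CPM (median 0.968) in 2-mo WT, from 0.375 to 1.18 (median 0.838) in HGPS and from 3.13 to 6.27 (median 5.04) in 24-mo WT. All 24-mo mice lay above all 12 young mice (2.36 ± 0.27, adjusted p 5.9e-06). Kcnf1, a silent subunit, was at the edge of detection in the young aorta, with 4 to 21 counts per 2-mo WT mouse and 26 to 77 per 24-mo mouse. That is 0.214 to 1.08 CPM (median 0.453) in 2-mo WT, 0.375 to 1.07 (median 0.818) in HGPS and 1.86 to 4.16 (median 3.61) in 24-mo WT. The 24-mo group again stood clear of both young groups (2.67 ± 0.34, adjusted p 2.6e-05).

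Kcnq3 ranged from 13.8 to 30.4 CPM (median 15.8) in 24-mo WT, above the 4.89 to 7.46 of 2-mo WT (1.49 ± 0.24, adjusted p 0.000234). Kcnd3 ranged from 50.05 to 65.3 CPM (median 56.2), above the 19.6 to 38.5 of 2-mo WT (0.85 ± 0.15, adjusted p 0.000913). Kcna1, a Kv channel typical of axons, ranged from 1.48 to 3.14 CPM (median 2.12), above the 0.415 to 1.26 of 2-mo WT (1.44 ± 0.32, adjusted p 0.00558). All 3 had separate groups. Kcns3, a silent partner of Kv channels in vascular muscle, and Kcnma1 were higher by smaller amounts with overlapping groups (0.53 ± 0.13, adjusted p 0.0103, and 0.33 ± 0.10, adjusted p 0.0337). The call of Kcnma1 was lost, at adjusted p of 0.0525 to 0.0791, without 2-mo WT replicate 1, 2 or 5 or 24-mo WT replicate 1, 4 or 5.

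The genes called lower with age were Kcnk6, a K2P channel with arterial expression, and Kcnn3. Kcnk6 ranged from 11.9 to 15.4 CPM (median 13.3) in 2-mo WT, from 11.3 to 17.3 (median 15.2) in HGPS and from 7.27 to 9.55 (median 8.55) in 24-mo WT, where every old mouse was below every young one (-0.66 ± 0.11, adjusted p 0.00044). Kcnn3 ranged from 6.34 to 10.4 CPM (median 7.63) in 2-mo WT and from 4.18 to 7.46 (median 5.32) in 24-mo WT (-0.53 ± 0.15, adjusted p 0.0216). The groups of Kcnn3 overlapped, and its call was lost without 2-mo WT replicate 5 (adjusted p 0.0606).

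**Figure D5:**
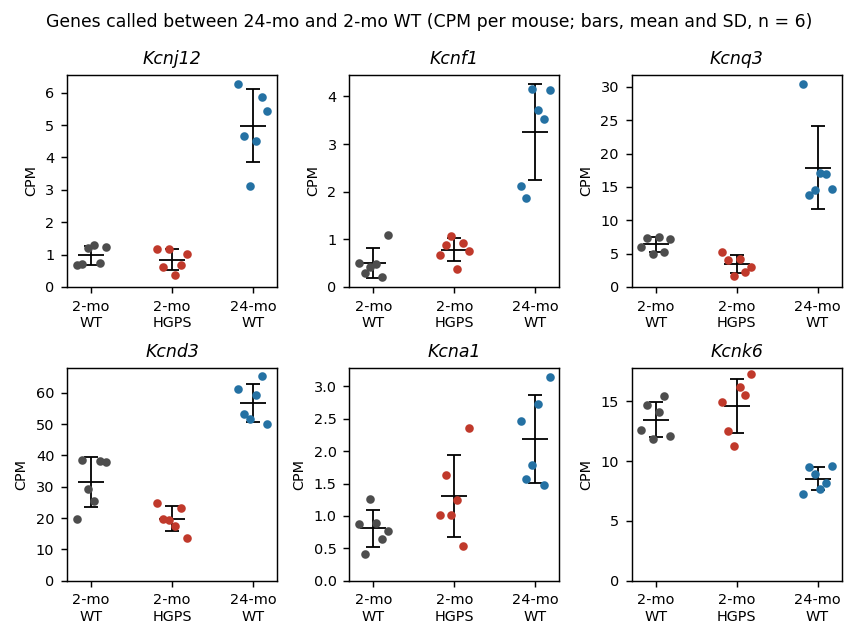
CPM of 6 potassium channel genes in each mouse, with 1 panel per gene and an axis from 0. Points are mice and bars are the mean and SD of 6 mice. The 24-mo WT points lie above 2-mo WT for Kcnj12, Kcnf1, Kcnq3, Kcnd3 and Kcna1 and below for Kcnk6.

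Markers of nerve and muscle moved with age too. Of 6 Schwann cell markers tested 4 were higher and 1, Pmp22, was lower, and their summed level went from 194.6 to 253.2 CPM in 2-mo WT to 156.8 to 196.0 in 24-mo WT. Among 3 neuron markers tested 2 were higher, with sums of 41.35 to 70.7 CPM in 2-mo WT and 82.35 to 129.1 in 24-mo WT, and 2 of the 9 genes of the full neuron list had 0 counts in every mouse of either group. Of the muscle markers few passed the test. Of 4 skeletal muscle markers 1, Ckm, was higher, and of 7 cardiac markers 2, Tnnt2 and Ryr2, were higher and 1, Myh7, was lower. The skeletal muscle sum was 3.67 to 5.36 CPM in 2-mo WT and 5.81 to 9.21 in 24-mo WT, and the cardiac sum 69.0 to 98.4 and 108.1 to 197.8 CPM, most of it Ryr2 at a mean of 77.2 and 109.5 CPM. Fibroblast markers were lower for 4 of 8 genes and higher for 0. Of 10 endothelial markers 0 were called. Their score in 24-mo WT was 5.006 to 5.251 in replicates 1, 4 and 5 and 5.9 to 5.975 in replicates 2, 3 and 6. Kcnn3 stood at 4.178 to 5.215 CPM in replicates 1, 4 and 5 and at 5.424 to 7.461 CPM in replicates 2, 3 and 6. Kcnn4, not called with age, split more widely, at 1.019 to 1.582 CPM and 4.5 to 5.452 CPM in the same mice. With brown fat and skeletal muscle scores as covariates 5 of the 9 genes kept their call, and the share called over all genes was 5.41%. The genes that lost the call kept similar estimates, at 1.32 for Kcna1 (adjusted p 0.123), 0.54 for Kcns3 (adjusted p 0.0968), 0.37 for Kcnma1 (adjusted p 0.153) and -0.49 for Kcnn3 (adjusted p 0.191). The part of the nerve and endothelial markers in these results was not tested.

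HGPS and aging were each set against the same 2-mo WT mice, so their values are only given side by side, and the direct test is that of HGPS against 24-mo WT. It called 27 of the 42 genes, 21 lower and 6 higher in HGPS, a share of 64.3% against 47.3% of all genes (23.6% lower, 23.8% higher). At the stricter cut-offs 19 were called (15 lower, 4 higher), against 12.1% of all genes (6.11% lower, 6.02% higher). The groups did not overlap for 16 genes, against 22.2% of all genes. Kcnq3, Kcnd3 and Kcnma1 were lower in HGPS and higher with age against 2-mo WT. In the direct test their log2 fold changes were -2.40 ± 0.24 (adjusted p 2.95e-07), -1.52 ± 0.16 (adjusted p 3.31e-07) and -0.71 ± 0.10 (adjusted p 1.13e-05). The other large differences were in Kcnj12 (-2.59 ± 0.26, adjusted p 3.11e-07), Kcnc4 (-2.11 ± 0.18, adjusted p 3.78e-08) and Kcnf1 (-2.06 ± 0.32, adjusted p 3.5e-05). For Kcnj12 and Kcnf1 every 24-mo mouse lay above every mouse of both young groups, and for Kcnc4 every HGPS mouse lay below every WT mouse of both ages.

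Higher in HGPS than in 24-mo WT were Kcnk3 (2.097 ± 0.41, adjusted p 0.000384), Kcna5 (1.35 ± 0.25, adjusted p 0.0002), Kcnab2 (1.30 ± 0.23, adjusted p 0.000118), Kcnj15 (0.90 ± 0.23, adjusted p 0.00334), Kcnk6 (0.78 ± 0.11, adjusted p 1.28e-05) and Kcne4 (0.33 ± 0.13, adjusted p 0.0378). With brown fat and skeletal muscle scores as covariates 17 of the 42 genes were called, against 21.8% of all genes, and Kcnk3 went to 0.16 (adjusted p 0.69) and Kcnj15 to 0.56 (adjusted p 0.255), while Kcna5 at 1.21 (adjusted p 0.0511) and Kcne4 at 0.33 (adjusted p 0.234) lost the call at estimates near the earlier ones. Kcnn3, which was lower in both, did not pass the direct test (0.04 ± 0.15, adjusted p 0.828). Between 24-mo and 2-mo WT the estimates of Kcna5 and Kcnab2 were 0.02 ± 0.26 and 0.04 ± 0.24 (adjusted p 0.971 and 0.944). Kcnab1, Kcnmb1 and Kcnj8 were lower in HGPS than in 24-mo WT as they were against 2-mo WT, by 0.70, 0.32 and 0.93 on the log2 scale. Further falls of over 1.5-fold were called for Kcng3 (-1.48), Kcnk1 (-1.34), Kcna2 (-1.25), Kcnip4 (-1.14), Kcnn1 (-0.88), Kcns3 (-0.84), Kcna1 (-0.75), Kcnq5 (-0.73), Kcnj11 (-0.65), Kcnh2 (-0.64) and Kcnt2 (-0.63), with adjusted p values from 3.76e-05 for Kcns3 to 0.0496 for Kcna1. Kcnj2, Kcnk2, Kcnn4 and Kcnq1 were not called, between -0.17 and 0.24. Kcng3 went to -0.14 with the fat and muscle scores (adjusted p 0.919). In that fit the calls of Kcnmb1 (-0.29, adjusted p 0.182) and Kcnh2 (-0.45, adjusted p 0.0822) were lost as well. So were those of Kcnj11 (-0.66, adjusted p 0.186), Kcnk1 (-1.10, adjusted p 0.199) and Kcna1 (-0.92, adjusted p 0.226). The calls of Kcna1, Kcne4, Kcng3 and Kcnj11 in the direct test were each lost without at least 1 mouse. Kcna1 reached an adjusted p of up to 0.116 (without HGPS replicate 1, 3, 4 or 5 or 24-mo WT replicate 1, 4 or 6), Kcne4 up to 0.0957 (HGPS replicate 2, 3, 4, 5 or 6 or 24-mo WT replicate 2, 3 or 6), Kcng3 0.0813 (24-mo WT replicate 4) and Kcnj11 up to 0.0747 (HGPS replicate 1 or 3 or 24-mo WT replicate 1).

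Genes that work with the channels were examined from a list of 33, of which 23 were tested. In HGPS against 2-mo WT 6 were higher and 7 lower, against 22% and 21.2% of all genes. In 24-mo against 2-mo WT 3 were higher and 2 lower, against 6.29% and 5.38%. Abcc9, the sulfonylurea receptor that surrounds the Kcnj8 pore in smooth muscle, had 568.5 to 783.5 CPM (median 664.8) in 2-mo WT, 343.1 to 469.9 (median 366.9) in HGPS and 811.0 to 1062 (median 893.1) in 24-mo WT. The 3 groups did not overlap, with log2 fold changes of -0.80 ± 0.10 in HGPS (adjusted p 4.15e-06) and 0.44 ± 0.10 with age (adjusted p 0.00435). Its pore Kcnj8 fell with it in HGPS and did not pass the test with age (0.28 ± 0.10, adjusted p 0.087).

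Other partners moved in both directions. Of the sodium-potassium pump, which sets the potassium gradient, Atp1b3 and Atp1b1 were higher in HGPS (0.38 ± 0.07, adjusted p 0.000202, and 0.68 ± 0.22, adjusted p 0.0176) and Atp1b2 was lower (-0.84 ± 0.26, adjusted p 0.0134). Its FXYD regulators split likewise, with Fxyd5 at 1.77 ± 0.17 (adjusted p 2.63e-07) and Fxyd6 at 1.03 ± 0.18 (adjusted p 0.000158) against Fxyd1 at -0.31 ± 0.06 (adjusted p 0.000692) and Fxyd7 at -0.76 ± 0.26 (adjusted p 0.0223). Slc12a2, which carries potassium inward with sodium and chloride, was higher (0.42 ± 0.09, adjusted p 0.000678). Tmem38a, a potassium-permeable channel of the sarcoplasmic reticulum, was lower (-0.41 ± 0.07, adjusted p 9.78e-05). With age, Dpp10, a subunit of the Kcnd channels, and Lrrc55, a BK gamma subunit, were higher at 2.05 ± 0.47 (adjusted p 0.00622) and 1.58 ± 0.31 (adjusted p 0.0017), from mean levels of 0.800 and 0.639 CPM in 2-mo WT. Dpp10 ranged from 0.4132 to 1.055 CPM in 2-mo WT and from 0.4315 to 5.86 in 24-mo WT, so its groups overlapped. Those of Lrrc55 did not, at 0.4278 to 0.8722 and 1.172 to 2.754 CPM. The 2 partners lower with age were 1 of 3 endosomal and reticulum potassium channels and 1 of 5 FXYD regulators tested.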

How the data were processed

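Whole descending aortas of 18 mice were grouped by genotype and age from the sample labels. The authors assigned paired-end reads of ribosomal RNA-depleted, stranded libraries to GENCODE M23 transcripts with salmon, summed them per gene with tximport, and deposited the estimated counts as whole numbers for 54281 genes, without normalization. This follows the study's methods, whereas the submitters' processing notes name Bowtie 0.12.2 and the build mm10 (GRCm38), with no role given. Symbols, coordinates and sequences were taken from GENCODE M21 (GRCm38), in which 54107 identifiers were found.

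The 15210 genes that reached 10 counts in 6 or more mice were scaled with TMM and tested with edgeR 4.0.16 (R 4.3.3) by glmQLFit and glmQLFTest, with all 3 groups in 1 fit and 15 residual degrees of freedom. CPM uses TMM-scaled library sizes. Standard errors were obtained from the fold change and the square root of F. Marker scores are mean log2 CPM (prior count 2). DESeq2 1.42.0 was an alternative, beside other scalings, filters, covariates, a block and each mouse left out. On counts simulated for HGPS against 2-mo WT among 15210 genes, 74% of 100 genes changed 2-fold and 60% of 100 changed 1.5-fold were recovered, and 7 of the unchanged genes of the same simulation were called. The changed genes were drawn at random from all levels, whereas 43.2% of all genes were called in the data. The recovery rates are therefore not the power of the test for the channel genes.

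The members and lists were chosen with earlier results of these data known. Named were the members called with a 1.5-fold change and a set of 21 vascular channel genes where tested (Kcna3 was not). Values of 2 of the 42 members and of 1 partner gene are not reported here, though counts include them. Kcnh2, Kcnt2, Kcnn1 and Kcns3, partner genes and other members were named after their values were seen. Replicates of a group are different mice, and no pair of the same group agreed within sampling noise.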

Additional observations from a re-analysis of the deposited data

Results flagged for a closer look

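A mouse far from the other 5 of its group was looked for in 96 groups, the 3 groups of each of 32 named channel genes, and 8 were found. The rule compares the gap to the nearest mouse with the range of the group (Dixon's ratio, 95% critical value), and chance flags about 1 group in 20. The 24-mo WT group held 4 of them. Kcnq3 stood at 30.41 CPM in replicate 1, against 17.11 in the next mouse, and Kcnj15 at 37.15 CPM in the same mouse, against 17.17. Kcna6 stood at 3.161 CPM in replicate 4 and Kcnab2 at 3.637 CPM in replicate 6. The 2-mo WT group held 3. Kcne4 stood at 52.07 CPM in replicate 2, against 36.59 in the next mouse, Kcnf1 at 1.085 CPM in replicate 6, the mouse labelled 95 d, and Kcnk1 low at 0.5589 CPM in replicate 3. In HGPS, Kcnt2 stood at 25.28 CPM in replicate 4, against 19.63.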

How the results depend on the processing

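The count of called channel genes was 23 of 42 in HGPS against 2-mo WT, 9 in 24-mo against 2-mo WT and 27 in HGPS against 24-mo WT. Over all genes the shares called were 43.2%, 11.7% and 47.3%. DESeq2 gave 24, 12 and 27, against 44%, 13.7% and 48.4% of all genes. Leaving out 1 mouse gave 20 to 23, 7 to 13 and 24 to 27. Brown fat and skeletal muscle scores as covariates gave 14, 5 and 17, against 21.6%, 5.41% and 21.8%. The smooth muscle score gave 0, 10 and 1, against 0.138%, 11.1% and 0.618%. The study's cut-offs gave 10, 5 and 19, against 9.5%, 2% and 12.1%. The replicate number as a block gave 21, 7 and 26, against 41.8%, 10.3% and 45.8%. Same-numbered mice did not deviate together (correlations of deviations from -0.16 to 0.17, 2 above 0.1 in the first comparison), so the numbers do not pair the mice. Under the block Kcnk1 and Kcnk2 in HGPS, Kcnma1 and Kcnn3 with age, and Kcne4 in the direct test were lost. With no filter on low counts the calls of Kcna2 (adjusted p 0.0534), Kcnk1 (0.0773) and Kcnk2 (0.0729) in HGPS were lost. The same held for Kcnma1 with age (0.0579) and Kcna1 in the direct test (0.0886).

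The smooth muscle score, which separated the groups, turned Kcnd3 to 0.0118, Kcne4 to 0.11, Kcnh2 to 0.0423, Kcnj2 to -0.42, Kcnma1 to 0.15, Kcnmb1 to 0.0218 and Kcnq3 to 0.0425 in HGPS against 2-mo WT, Kcnk3 to 0.46 with age, and Kcng3 to 0.65, Kcnh2 to 0.0841, Kcnj11 to 0.43, Kcnk2 to 0.89, Kcnk3 to -0.21, Kcnmb1 to 0.27 and Kcnq1 to -0.39 in the direct test. The fat and muscle scores turned Kcnn4 to 0.12 in HGPS, Kcnk3 to 0.10 with age, and Kcnk2 to 0.36 and Kcnn4 to 0.0205 in the direct test. The block turned Kcnk3 to 0.0638 with age. With 1 mouse left out, signs turned in HGPS for Kcne4 (-0.0861 to 0.0719) and Kcnn4 (-0.22 to 0.11), with age for Kcna5 (-0.0683 to 0.12), Kcnk3 (-0.36 to 0.37) and Kcnn4 (-0.13 to 0.30), and in the direct test for Kcnj2 (-0.19 to 0.014), Kcnk2 (-0.33 to 0.0563), Kcnn3 (-0.0347 to 0.13) and Kcnn4 (-0.37 to 0.0623).

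Some genes passed only elsewhere. Kcnq1 was called higher in HGPS by DESeq2 (adjusted p 0.0447), with the 2 groups alone (0.0324), and without HGPS replicate 2 (0.035) or 2-mo WT replicate 5 (0.0437). With age Kcna2 was called by DESeq2 (0.032) and without 24-mo WT replicate 2 (0.0286) or 3 (0.023), Kcne4 by DESeq2 (0.0404) and without 24-mo WT replicate 4 (0.0197), and Kcnc4 (0.0187), Kcnj8 (0.0342) and Kcnk2 (0.0196) without 24-mo WT replicate 3. Kcnj8 was also called with the smooth muscle score (0.0397). The cause was not tested in any of these cases. Depth limits Kcnk2, Kcnab3, Kcng3 and Kcnf1, for which no more than 2 of the 2-mo WT mice reached 10 counts.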
